A study of Homo sapiens with 8 samples.

Results

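The genes described here are those of the cell's oxygen-sensing switch: the alpha subunits of hypoxia-inducible factor (HIF1A, EPAS1 and HIF3A), their beta partners ARNT and ARNT2, the prolyl hydroxylases EGLN1, EGLN2 and EGLN3, the asparaginyl hydroxylase HIF1AN, and CITED2. They were chosen by symbol, and all 10 were present among the 43682 symbols of the RNA count tables. The libraries came from UM-RC-2, an established line of clear cell renal cell carcinoma whose own VHL gene carries the missense change p.Arg82Pro per the labels. A lentivirus had introduced either VHL or the control construct called VEC, and cells of both kinds were kept under 10 µg/ml blasticidin, so the control cells share the infection, the selection and the mutant VHL gene. There were 2 VEC and 2 VHL libraries. The labels give the molecule of both replicate 1 libraries as total RNA and that of both replicate 2 libraries as polyA RNA. Whether replicates came from separate cultures or clones is not stated. The main p-values compare VHL with VEC within each replicate number. They measure only how far the changes of the 2 pairs differ, with spread shared across genes, and not the spread between libraries of a group. That difference between pairs may be technical.

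In oxygenated cells the EGLN enzymes, also called PHD proteins, hydroxylate prolines of the HIF alpha subunits, and the VHL ubiquitin ligase then binds the marked subunit and sends it for degradation. HIF1AN, also called FIH, hydroxylates an asparagine and thereby blocks binding of the coactivators CREBBP and EP300, and CITED2 competes with HIF for the same coactivators. EGLN1, EGLN3 and CITED2 are also known HIF target genes, so each forms a feedback arm of the pathway. In clear cell renal carcinoma, loss of VHL leaves the alpha subunits stable in normal oxygen. RNA counts measure transcripts and say nothing of this protein step. In bulk RNA, fewer cells that express a gene and less RNA per cell cannot be told apart.

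The promoter windows of the 4 members whose transcripts passed the test are shown first, because 3 of these genes are textbook targets of a factor with a short known binding core. Each window runs from 250 bases before to 50 bases after the gene's start, is 300 bases long, and is taken from RefSeq on GRCh38.p14, whereas the counts were made on hg19. Capitals mark the HIF binding core, searched as ACGTG and GCGTG on both strands. A palindromic CACGTG holds overlapping matches of ACGTG on both strands.
EGLN1 (chr1:231422238-231422537, minus strand): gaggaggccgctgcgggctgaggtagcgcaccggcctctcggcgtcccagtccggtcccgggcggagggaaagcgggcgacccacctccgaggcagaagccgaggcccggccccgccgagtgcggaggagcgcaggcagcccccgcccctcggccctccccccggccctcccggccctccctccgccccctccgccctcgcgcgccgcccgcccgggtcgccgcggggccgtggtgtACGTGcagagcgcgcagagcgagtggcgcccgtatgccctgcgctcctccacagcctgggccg
CITED2 (chr6:139374599-139374898, minus strand): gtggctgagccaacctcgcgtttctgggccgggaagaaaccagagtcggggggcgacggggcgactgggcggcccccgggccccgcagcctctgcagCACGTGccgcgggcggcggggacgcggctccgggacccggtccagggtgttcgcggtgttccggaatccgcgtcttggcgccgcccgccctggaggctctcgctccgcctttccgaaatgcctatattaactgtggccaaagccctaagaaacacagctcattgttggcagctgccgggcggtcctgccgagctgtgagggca
HIF1A (chr14:61695263-61695562, plus strand): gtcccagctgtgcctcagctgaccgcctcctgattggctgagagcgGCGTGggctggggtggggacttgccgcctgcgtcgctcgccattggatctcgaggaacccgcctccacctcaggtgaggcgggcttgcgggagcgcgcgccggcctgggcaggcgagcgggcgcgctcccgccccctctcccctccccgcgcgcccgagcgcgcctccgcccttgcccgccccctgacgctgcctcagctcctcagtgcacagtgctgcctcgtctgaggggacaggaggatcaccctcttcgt
EGLN3 (chr14:33951025-33951324, minus strand): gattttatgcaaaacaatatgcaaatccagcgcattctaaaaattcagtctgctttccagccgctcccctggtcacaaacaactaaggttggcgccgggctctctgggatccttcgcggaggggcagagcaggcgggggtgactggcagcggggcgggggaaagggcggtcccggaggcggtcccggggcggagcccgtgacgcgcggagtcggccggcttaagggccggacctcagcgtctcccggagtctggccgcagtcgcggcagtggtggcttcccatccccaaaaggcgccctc

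EGLN1 held 1 match, ACGTG, which began 13 bases before the start. CITED2 held the palindrome, with matches that began 153 and 152 bases before the start. HIF1A held 1 match of GCGTG, 204 bases before the start, and EGLN3 held none in this window. Among all 35116 windows of this length in the table, 48.4% held at least 1 match of either core, and 21.4% held ACGTG. A match is thus common and is given as a description of the letters only. Of the other members, EPAS1 held 1 match, HIF3A 3 and EGLN2 2, while ARNT and HIF1AN held none. The table had no window for ARNT2.

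The libraries held between 16230291 and 50027348 counts and separated by replicate number. Between VEC and VHL of the same number Pearson's r over 21673 genes was 0.991 and 0.978, against 0.502 and 0.531 between libraries of the same group, as a description over genes that are not independent of each other. Pseudogenes took 1.40% and 2.09% of counts in replicate 1, and 31.3% and 25% in replicate 2. VHL and VEC were compared within each replicate number, with the number as a block in the model. The numbers differ in labelled RNA type and in the form of the alignment name. The cause of the separation was not tested. Levels are given as CPM, the usual counts relative to library size, scaled by the trimmed mean of M-values (TMM). They are not corrected for transcript length, so levels are compared between libraries and not between genes. The transcript of VHL itself stood at 37.1 (VEC) and 146 CPM (VHL) in replicate 1 and at 88.9 and 151 CPM in replicate 2, higher in the VHL library of both pairs. All 8 markers listed for renal epithelium and renal carcinoma, VIM and MET among them, had at least 20 counts in every library. Endothelial markers summed to at most 0.0864 CPM in a library, with PECAM1, CDH5 and KDR at 0 throughout, fibroblast markers to at most 1.59 CPM with COL1A2 at 0, and neuronal markers to at most 0.858 CPM with SNAP25 at 0. Leukocyte markers summed to 17.6 and 11.7 CPM in replicate 1 and to 87.5 and 82.4 CPM in replicate 2 (VEC and VHL), with CD3E at 0. LYZ had 0 and 1 counts in replicate 1 and 1989 and 1793 in replicate 2. PTPRC had 0 counts in both replicate 1 libraries and 72 and 63 in replicate 2. CD68 was found in every library, at 17.6 and 11.6 CPM in replicate 1 and 42.2 and 36.8 CPM in replicate 2. The part of this difference between replicates in the results was not tested.

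Of the 10 members, 8 passed the filter on low counts and 4 of those were called at an adjusted p under 0.05 in edgeR's quasi-likelihood test with the block. Among all 24417 genes tested, 3.10% were called, 0.749% higher and 2.35% lower in VHL. HIF1A rose, and EGLN1, EGLN3 and CITED2 fell. EPAS1, ARNT, HIF1AN and HIF3A did not pass. The median log2 change over the 8 members was 0.03, against -0.03 over all genes tested. By level alone, both VHL libraries lay below both VEC libraries for EGLN1, EGLN3 and CITED2 and above them for EPAS1. The groups failed to overlap in this way for 7.86% of all genes tested, 4.47% with VHL higher and 3.39% with VHL lower.

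**Figure D1:**
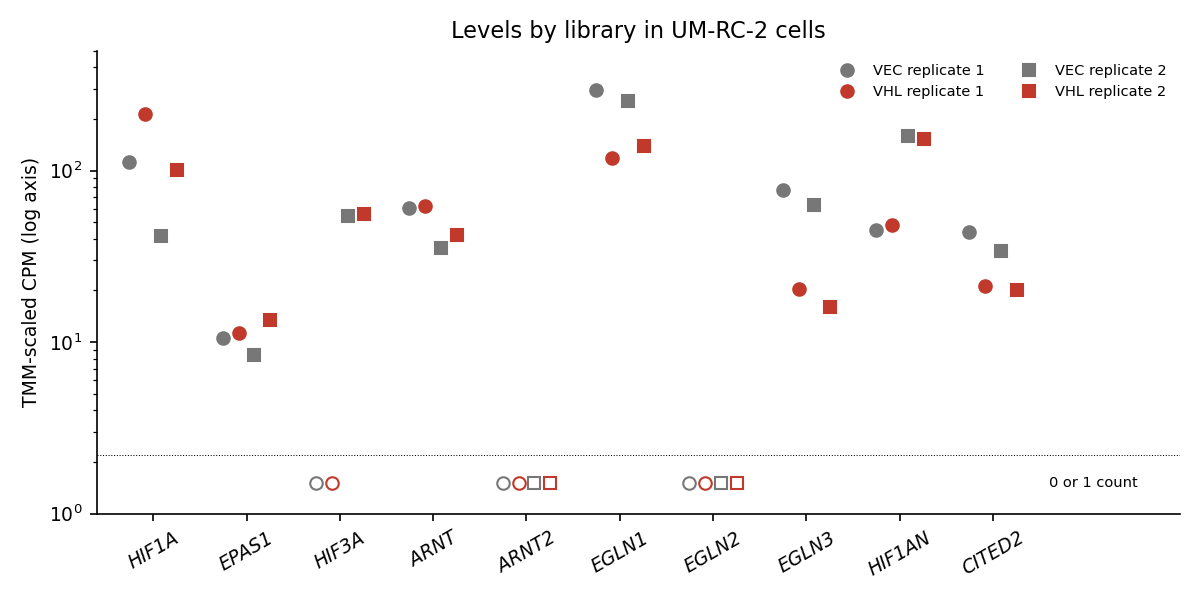
TMM-scaled CPM (log axis) of the 10 members in each library, grey for VEC and red for VHL, circles for replicate 1 and squares for replicate 2. Open symbols below the dotted line are values of 0 or 1 count, placed without scale. Both red symbols lie below both grey symbols for EGLN1, EGLN3 and CITED2, while HIF3A is present in replicate 2 alone.

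Among the alpha subunits, HIF1A, which encodes the widely expressed HIF-1 alpha, was the member that rose. In replicate 1 the VEC library stood at 112 CPM and the VHL library at 213 CPM, and in replicate 2 they stood at 41.5 and 100.2 CPM. VHL was the higher library in each pair, by 1.91-fold and 2.41-fold, but the groups overlapped, since VEC of replicate 1 lay above VHL of replicate 2. The blocked fit gave a log2 change of 1.10 ± 0.22 (SE, n = 2 per group, edgeR adjusted p = 0.000103). In fits without the block, leaving out 1 library moved this value widely. It went to 0.39 without VHL replicate 1, 0.52 without VEC replicate 2, 1.47 without VHL replicate 2 and 1.92 without VEC replicate 1. Such fits set a lone library against 2 and mix libraries labelled total RNA with libraries labelled polyA RNA. The blocked change was above the change of 98.4% of genes tested. Counting error alone allowed folds of 1.82 to 2.01 in the first pair and 2.29 to 2.55 in the second (exact 95% intervals), so the pairs differed in size by more than counting error. The level also differed between replicates of a group, by -1.42 on the log2 scale in VEC and -1.09 in VHL from replicate 1 to replicate 2, as much as between the groups.

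EPAS1 encodes HIF-2 alpha, the subunit best known as the oncogenic driver in this carcinoma. In replicate 1 its VEC level was 10.5 CPM and its VHL level 11.3 CPM, from 244 and 211 counts. In replicate 2 it stood at 8.40 and 13.4 CPM, from 383 and 546 counts. The VHL library was the higher in each pair, but by 1.07-fold in the first and 1.59-fold in the second. The first of these lay within counting error (0.888 to 1.30, exact 95% interval) and the second did not (1.39 to 1.82). With the block, EPAS1 changed by 0.40 ± 0.29 on the log2 scale and was not called (edgeR adjusted p = 0.679), with a 95% interval of -0.17 to 0.96 that includes both 0 and a change nearly as large as that of HIF1A. Within a library, the ratio of HIF1A to EPAS1 counts is free of the scaling between libraries. From VEC to VHL this ratio went from 10.6 to 18.8 in replicate 1 and from 4.94 to 7.50 in replicate 2, a factor of 1.78 and 1.52, without correction for length and with no test.

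HIF3A encodes an alpha subunit with forms that restrain the others. It had 0 counts in both replicate 1 libraries, where a count of 0 allows up to 0.130 CPM in VEC and 0.161 CPM in VHL, taking 3 counts as the limit and counting error alone. In replicate 2 it had 2468 counts in VEC and 2286 in VHL, or 54.1 and 56.0 CPM. All of the information on VHL thus came from the replicate 2 pair, whose fold was 1.03 (0.977 to 1.10, exact 95% interval for counting error). The blocked log2 change was 0.05 ± 0.31 (edgeR adjusted p = 0.992). HIF3A was 1 of 598 symbols with 0 counts in both replicate 1 libraries and over 1000 in both replicate 2 libraries, of which 300 were pseudogenes and 201 protein-coding genes. Whether these counts are HIF3A transcripts was not tested.

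Of the beta subunits, ARNT, a constitutive partner with which alpha subunits bind DNA, was measured in all libraries. Replicate 1 gave 60.4 CPM for VEC and 61.9 CPM for VHL, and replicate 2 gave 35.5 and 42.4 CPM. The VHL library was slightly the higher in each pair, and the groups overlapped. On the log2 scale the blocked estimate was 0.15 ± 0.21 (95% interval -0.27 to 0.56, edgeR adjusted p = 0.928). The ratio of HIF1A to ARNT counts went from 1.85 to 3.44 in replicate 1 and from 1.17 to 2.36 in replicate 2. The corresponding ratio of EPAS1 to ARNT went from 0.175 to 0.183 and from 0.237 to 0.315. ARNT2, the paralog best known in neurons, had 0 counts in 3 libraries and 1 in VEC of replicate 2, and was not tested.

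**Figure D2:**
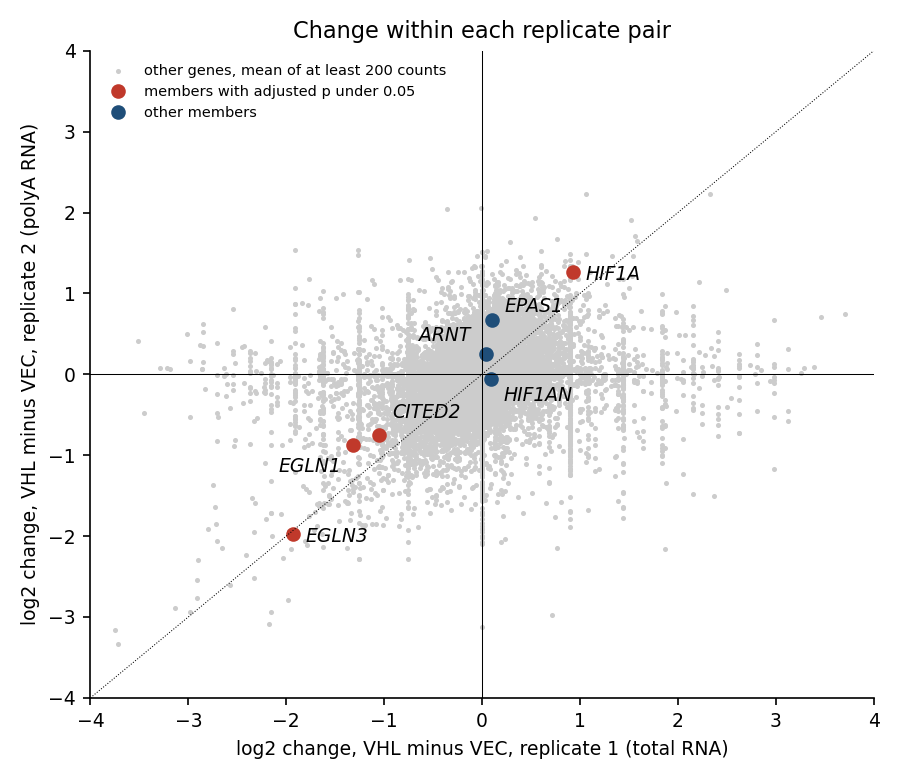
Each point is a gene placed by its log2 change (VHL minus VEC) in the replicate 1 pair on the x axis and the replicate 2 pair on the y axis. Grey points are genes whose mean count was 200 or more, red points are members that were called, blue points are members that were not, genes beyond the axis ends are not drawn, and HIF3A is left out because it had no counts in replicate 1. EGLN3 lies close to the dotted line of equal change, at -1.93 and -1.97, and HIF1A lies in the opposite corner at 0.93 and 1.27.

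The prolyl hydroxylases that were measured both fell. EGLN3 encodes PHD3, whose transcript is known to be among the most oxygen-responsive of the family. Replicate 1 gave 77.5 CPM for VEC and 20.3 CPM for VHL, and replicate 2 gave 63.0 and 16.0 CPM, from 379 or more counts in every library. The groups did not overlap, and the VHL level was 0.262 and 0.254 of the VEC level in the pairs. Both folds lay within each other's counting intervals (0.234 to 0.293 and 0.233 to 0.277). The blocked log2 change was -1.95 ± 0.22 (SE, n = 2 per group, edgeR adjusted p = 1.55e-15), ranked 20 by p-value among all genes tested. EGLN3 differed little between replicates of a group, by -0.30 in VEC and -0.34 in VHL on the log2 scale.

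EGLN1 encodes PHD2, regarded as the main enzyme acting on HIF-1 alpha in normal oxygen. Its VEC level of 296 CPM in replicate 1 compared with 119 CPM in VHL, and its VEC level of 256 CPM in replicate 2 with 139 CPM. Both VHL libraries were below both VEC libraries, at 0.401 and 0.545 of the VEC level. The intervals of these folds for counting error, 0.382 to 0.421 and 0.527 to 0.562, did not overlap, with the scaling between libraries taken as exact. The fall was thus smaller in the replicate 2 pair. With a single pair of each labelled RNA type, a link to the RNA type was not tested. For EGLN1 the blocked fit gave a log2 change of -1.10 ± 0.24 (edgeR adjusted p = 0.000389). The ratio of EGLN3 to EGLN1 counts went from 0.261 to 0.171 in replicate 1 and from 0.246 to 0.115 in replicate 2, so within each library pair EGLN3 was lowered more than EGLN1. This difference between the genes was not tested.

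EGLN1 has a processed copy, EGLN1P1, that can share its reads, and the treatment of such reads in the counting is not given in the sources used here. EGLN1P1, looked at after its values were seen, held 68 and 31 counts in replicate 1 and 1546 and 730 in replicate 2 (VEC and VHL). It took 0.982% and 1.38% of the counts of both symbols in replicate 1, and 11.7% and 11.4% in replicate 2. Adding its counts to those of EGLN1 gave log2 changes of -1.31 and -0.88 in the pairs, against -1.32 and -0.88 for EGLN1 alone. The copies of EGLN3 and HIF1A were smaller, EGLN3P1 at no more than 2.24% of the summed counts and HIF1AP1 at no more than 3.07%.

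EGLN2, which encodes PHD1, could not be assessed. It had 0 counts in both replicate 1 libraries and 1 count in each replicate 2 library. The read-through symbol RAB4B-EGLN2, which overlaps EGLN2 in the RefSeq table, and its neighbour RAB4B were at 0 in every library. Of 257 protein-coding symbols that are named in a read-through symbol of the tables, 23.3% had at most 1 count in every library, against 16.5% of the other 18603 protein-coding symbols. Whether the counting of overlapping genes set the value of EGLN2 was not tested, and the value is uncertain.

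HIF1AN, the asparaginyl hydroxylase, did not pass the test. Replicate 1 gave 44.9 CPM for VEC and 48.0 CPM for VHL, and replicate 2 gave 159 and 153 CPM. VHL was slightly the higher library in the first pair and slightly the lower in the second. The blocked log2 change was 0.02 ± 0.22 (95% interval -0.41 to 0.45, edgeR adjusted p = 0.997), an interval that does not reach the estimates of EGLN1 or EGLN3. The level was far higher in replicate 2, by 1.82 on the log2 scale in VEC and 1.68 in VHL. Relative to HIF1AN, EGLN1 counts went from a ratio of 6.60 to 2.48 in replicate 1 and from 1.61 to 0.907 in replicate 2.

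CITED2, the competitor for the coactivators, fell. In replicate 1 the VEC library held 43.8 CPM and the VHL library 21.2 CPM, and in replicate 2 they held 34.0 and 20.2 CPM. The groups did not overlap, and VHL stood at 0.483 and 0.595 of the VEC level. With the block the log2 change of CITED2 was -0.90 ± 0.23 (SE, n = 2 per group, edgeR adjusted p = 0.00503). The counting intervals of the pairs, 0.429 to 0.543 and 0.547 to 0.648, missed each other only narrowly, with the scaling between libraries taken as exact. Whether the pairs differed in size was not tested. The coactivators for which it competes, named here for their role after their values were seen, did not pass: CREBBP changed by 0.06 ± 0.22 (edgeR adjusted p = 0.986) and EP300 by 0.08 ± 0.21 (edgeR adjusted p = 0.972) on the log2 scale.

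**Figure D3:**
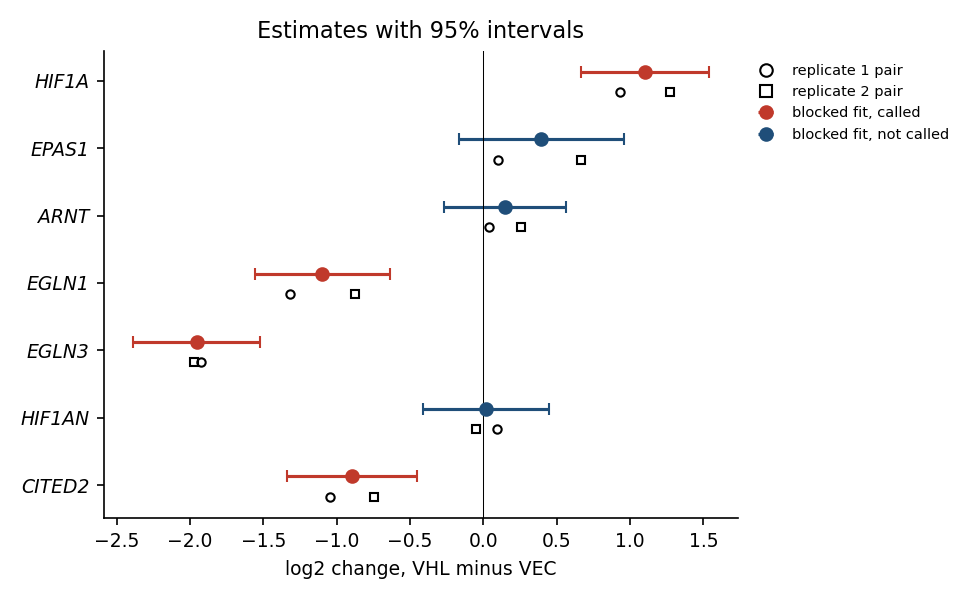
Filled circles are log2 changes (VHL minus VEC) from the blocked fit with 95% intervals, red where called and blue where not, and open symbols below them are the changes within the replicate 1 and replicate 2 pairs. HIF3A, ARNT2 and EGLN2 are left out for lack of counts in at least 1 pair. The intervals of HIF1A, EGLN1, EGLN3 and CITED2 exclude 0, and those of EPAS1, ARNT and HIF1AN include it.

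These calls rest on the replicate block, which leaves 1 residual degree of freedom, so that the SE lean on the spread shared across genes. Without the block, 0 of the 8 members were called by edgeR's quasi-likelihood test (adjusted p = 0.999991 for each), which called 0 of all 24417 genes. At an unadjusted p under 0.05 in that fit stood 22 genes, among them EGLN3 as the single member.

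The HIF1A locus also gives rise to antisense transcripts, of which HIF1A-AS2 is known to respond to hypoxia. HIF1A-AS2 fell in VHL in the only pair that detected it. Replicate 1 gave 232 counts for VEC and 20 for VHL, or 10.0 and 1.07 CPM, and 0 counts in both replicate 2 libraries (blocked log2 change -3.19 ± 0.67, edgeR adjusted p = 0.000252). The DESeq2 Wald test with the block gave HIF1A-AS2 a change of -2.28 ± 1.91 and no adjusted p, so it was not called there. HIF1A-AS3, named after its values were seen, was found in both pairs, with 145 and 13 counts in replicate 1 and 187 and 18 in replicate 2. Its log2 change was -3.19 ± 0.48 (edgeR adjusted p = 1.64e-08). HIF1A-AS1 had 0 counts throughout. Relative to HIF1A, HIF1A-AS3 counts went from 5.62% to 0.327% in replicate 1 and from 9.88% to 0.440% in replicate 2, so within each pair HIF1A-AS3 was low in the library in which HIF1A was high. These symbols overlap HIF1A, and the sources used here do not give the strand setting of the counting, without which their reads and those of HIF1A cannot be told apart.

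**Figure D4:**
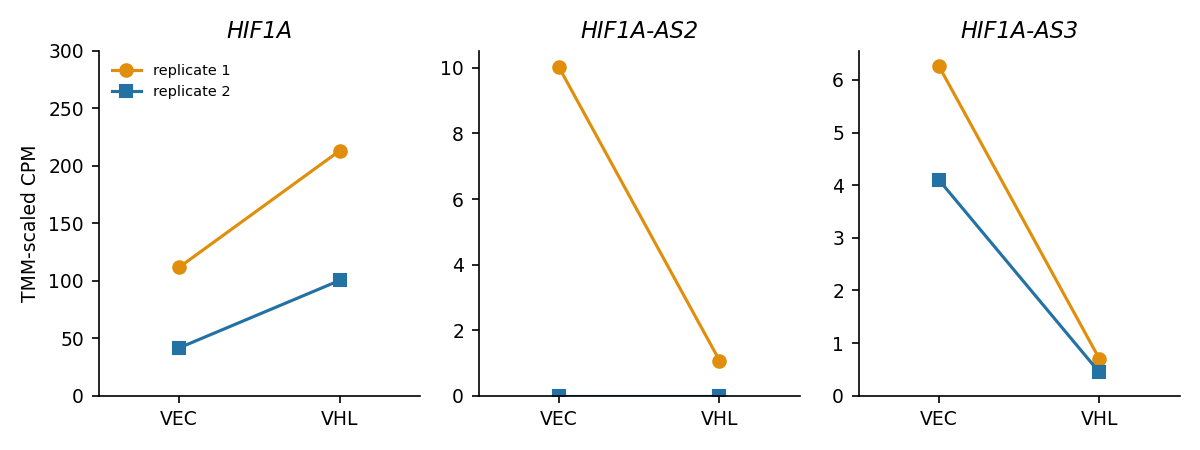
TMM-scaled CPM (linear axes from 0, a scale of its own in each panel) of HIF1A and of the antisense symbols HIF1A-AS2 and HIF1A-AS3 in VEC and VHL, with lines joining libraries of the same replicate number. HIF1A is higher in VHL in both pairs, HIF1A-AS3 is lower in both, and HIF1A-AS2 is at 0 in both replicate 2 libraries.

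Around the members, 33 further symbols of HIF regulators, cofactors and ARNT partners were followed, of which 32 were in the tables and 27 passed the filter. HIF1A-AS2, ELOB and OS9 were called, each lower in VHL (3 of 27, 11.1%, against 2.35% of all genes called lower), and the median log2 change was 0.03. ELOB encodes elongin B, an adaptor of the VHL ligase, and went from 56.2 to 35.3 CPM and from 22.8 to 11.5 CPM (-0.83 ± 0.22, edgeR adjusted p = 0.0124). OS9, a lectin of the endoplasmic reticulum, went from 125 to 79.1 CPM and from 23.4 to 13.5 CPM (-0.72 ± 0.21, edgeR adjusted p = 0.0289). The OS9 call was lost when genes with low counts were not filtered (edgeR adjusted p = 0.0637). The next 3 were also named after their values were seen. ELOC, the partner of ELOB, changed by 0.03 ± 0.22 and CUL2, the scaffold of the ligase, by 0.25 ± 0.22 on the log2 scale, and neither was called (edgeR adjusted p = 0.992 and 0.776). P4HTM, a membrane-bound prolyl hydroxylase, was at 17.2 and 12.0 CPM in replicate 1 and at 8.60 and 5.53 CPM in replicate 2, and was not called (-0.58 ± 0.29, edgeR adjusted p = 0.369). The most abundant symbols of the list, HSP90AA1, RACK1, HSP90AB1 and WSB1, which encode chaperones and binding partners of HIF-1 alpha or its regulators, were not called. Their log2 changes were 0.56, -0.59, 0.19 and -0.46 in that order. The result for RACK1 (edgeR adjusted p = 0.366) depended on the processing, since it was called lower with protein-coding genes alone (edgeR adjusted p = 0.0291) and in the DESeq2 Wald test (DESeq2 adjusted p = 0.00577).

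Known targets were followed to set the feedback genes beside other outputs of the pathway. Of 10 targets that are known to prefer HIF-1 alpha, 9 were called lower (90%, against 2.35% of all genes tested). The median log2 change was -1.51, against -0.03 over all genes. In the DESeq2 Wald test 8 were called lower (80%, against 2.97% of all genes), and ALDOA, with 20 to 143 counts, had no adjusted p. HK1, a hexokinase, was the gene not called in the main fit, at -0.12 ± 0.22 (edgeR adjusted p = 0.953). EGLN3 at -1.95 lay near BNIP3, a mitophagy receptor, at -2.00, and EGLN1 at -1.10 lay near the enolase ENO1 at -1.09. Of 10 targets that are known to prefer HIF-2 alpha, 8 passed the filter, with a median of -0.71. Of these, 4 were called lower (50%, against 2.35% of all genes) and 1 higher (12.5%, against 0.749%). Those that fell were IGFBP3 (-3.02), STC2 (-1.63), VEGFA (-0.99) and PLIN2 (-0.82), and TGFA, a growth factor, rose by 0.76 on the log2 scale. The calls of PLIN2 and TGFA were lost without the filter on low counts (edgeR adjusted p = 0.0558 and 0.0675). CCND1, which encodes cyclin D1, was at 83.3 and 48.8 CPM in replicate 1 and at 67.6 and 49.7 CPM in replicate 2 (VEC and VHL), and was not called (-0.61 ± 0.21, edgeR adjusted p = 0.102). It was called lower with protein-coding genes alone (edgeR adjusted p = 0.0100) and in the DESeq2 Wald test (DESeq2 adjusted p = 0.000174). The difference between the lists was not tested, and earlier results on many of these targets were known when they were listed.

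**Figure D5:**
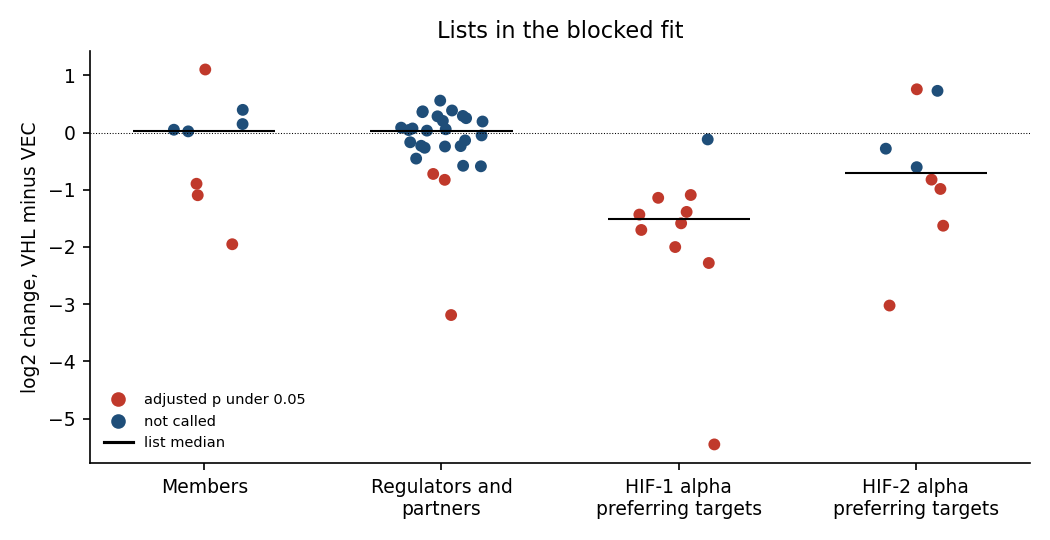
Each point is a tested gene's log2 change (VHL minus VEC) in the blocked fit, by list, red where called and blue where not, with a line at the list median and random sideways spread. The medians are 0.03 for the members, 0.03 for regulators and partners, -1.51 for targets preferring HIF-1 alpha and -0.71 for those preferring HIF-2 alpha.

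The genes whose pattern over the 4 libraries was most like that of each called member were found among 14342 genes whose mean count was 200 or more, by Euclidean distance of centred log2 CPM. For EGLN3 they were BNIP3 (distance 0.282), PHKA2 (0.442), a subunit of phosphorylase kinase, and NDRG1 (0.528). For EGLN1 they were MXI1 (0.251), a member of the MAX network, ATP6V1FNB (0.253) and PLCB1 (0.264), a phospholipase C. For CITED2 they were MXI1 again (0.106), STK32B (0.130) and SH3BGRL2 (0.147), of which STK32B and SH3BGRL2 were not called (edgeR adjusted p = 0.0635 and 0.0979). For HIF1A they were GEM (0.167), a small GTPase, PRTG (0.239) and B3GALT9 (0.321), all higher in VHL (edgeR adjusted p = 0.0183, 0.0114 and 0.0472). All these genes were picked for likeness to a called member in the same libraries, so their directions and p-values are no separate evidence. With 4 libraries of 2 labelled RNA types, such likeness covers the difference between replicates as well as that between groups.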

How the data were processed

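RNA was measured in 4 UM-RC-2 libraries, made from Trizol extracts with a TruSeq RNA kit per the labels' protocols. The deposited files hold raw read counts per gene symbol, per the file headers and the values. featureCounts, HOMER and hg19 are named in the submitters' processing notes, while the annotation, strand and multimapping settings are not given in the sources used here. The deposited H3K27ac tables carry no positions that tie regions to these genes and were not used.

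Counts were filtered with filterByExpr, scaled by TMM and fitted with edgeR 4.0.16 in R 4.3.3 (quasi-likelihood test, two-sided, Benjamini-Hochberg adjustment over 24417 genes, threshold 0.05). The model held group and replicate number. Within-pair log2 changes used a prior count of 2. SE come from each estimate and its F statistic (absolute estimate over the root of F). Counting intervals are exact at 95% and, like the limit of 3 counts, cover counting error only. They take the scaling between libraries as exact. The replicate number was taken as pairing because the comparison was set within each number and the alignment names differ in form between numbers. The number also marks the labelled RNA type. Deviations from the group means correlated at r = 0.983 over 21673 genes between VEC and VHL of the same number, although with 2 libraries per group these are mirror images of a single difference in each group. Of the symbols, 42760 (97.9%) matched RefSeq tables, which gave gene classes and promoters. The script was tested on simulated data.

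The members and lists were chosen with earlier results of these data known. Named genes were the members, called genes of 3 lists, the 4 most abundant others of each list where given, and the 3 genes most like each called member. Alternatives were no replicate block, DESeq2 size factors, the DESeq2 1.42.0 Wald test, no filter, a stricter filter, protein-coding genes alone, and leaving out each library or pair. Library totals, and symbols with at least 20 counts in every library, were added after seeing the data.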

Additional observations from a re-analysis of the deposited data

How the results depend on the processing

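The call of HIF1A as higher and of EGLN1, EGLN3 and CITED2 as lower was kept in each of the 7 alternatives that retained the replicate block, and 4 members were called in each, where 1.95% to 9.73% of all genes tested were called. The block decides the calls. Without the replicate block, 0 genes were called by edgeR (22 at an unadjusted p under 0.05), 0 members (1 unadjusted), 0 regulators (0 unadjusted), 0 of the targets preferring HIF-1 alpha (4 unadjusted) and 0 of those preferring HIF-2 alpha (1 unadjusted). Fits without the block that left out 1 library in turn mix libraries labelled total RNA with libraries labelled polyA RNA. They take the lone library to vary like the other group, so their calls are not given. Against 756 genes called, symbols with at least 20 counts in every library gave 1181 and the DESeq2 Wald test 1203. Without a filter on low counts, 3 targets preferring HIF-2 alpha were called instead of 5, while DESeq2 size factors, protein-coding genes alone, library totals, at least 20 counts in every library and the DESeq2 Wald test each gave 6. Estimates near 0 changed sign. HIF3A went to -0.048 with DESeq2 size factors, -0.039 with protein-coding genes alone and -0.0085 with library totals. HIF1AN went to -0.019 with no replicate block, -0.017 with DESeq2 size factors, -0.0070 with protein-coding genes alone and -0.019 in the DESeq2 Wald test. The median of the tested members, 0.03, was -0.03 with DESeq2 size factors. Leaving out libraries or pairs gave log2 ranges that crossed 0 for ARNT (-0.17 to 0.56), ELOB (-1.78 to 0.04), ENO1 (-2.63 to 0.44), HIF1A-AS2 (-10.52 to 7.22), HIF1AN (-1.17 to 1.21), HIF3A (-12.69 to 12.61), OS9 (-2.46 to 0.98), PFKL (-3.04 to 0.70) and PLIN2 (-1.76 to 0.20). Without VEC replicate 1 the values were -0.95 for HIF3A and -0.66 for HIF1AN, and 0.036 for ELOB, and without VHL replicate 2 the value for OS9 was 0.10. The cause was not tested. Labelled RNA type, form of alignment name and replicate number cannot be told apart. ARNT2 and EGLN2 had at most 1 count in a library and could not be assessed.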
